A study of Capra hircus with 4 samples.

Results

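The PDE4 cAMP phosphodiesterases PDE4A, PDE4B, PDE4C and PDE4D were described in RNA-seq data of goat longissimus dorsi muscle. The members were chosen by their gene names and by measured values, since PDE4D and PDE4B had been seen to move in opposite directions in treatment 1, so the comparison of that library with the control is a description and no test was made of it. In the authors' table that pairs assembled sequences, called unigenes, with goat genes, 8 of 21220 paired unigenes carried a PDE4 name, and they stood for 4 of 11209 goat genes and for 15 of 66307 transcripts. The table paired 1 unigene with PDE4A, 4 with PDE4B, 2 with PDE4C and 1 with PDE4D.

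The data comprised 4 muscle libraries of Cashmere Goats aged 2 months. The control library came from goats without the drug, and the libraries treatment 1, treatment 2 and treatment 3 came from goats given oral ractopamine, a beta-adrenergic agonist used as a growth promoter, at 1 mg/kg of body weight. The treatment comprised 28 dosing days and 21 withdrawal days. The labels call the treated libraries replicates, whereas the methods of the study name different sampling days. No label ties a library to a day or to a number of animals, so each one was set against the control under its own number. Unigenes with any counts numbered 39256, 11275 and 30808 in treatments 1, 2 and 3. The study prints the same numbers, in this order, for its sequenced dosing day and its earlier and later sequenced withdrawal days. It describes them as genes that differed from control. The match links the libraries to those days by number only, and no comparison below uses it. With 1 control library there was no replicate check of any difference, and all intervals below are 95% intervals that cover counting error only.

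PDE4 enzymes hydrolyse the second messenger cAMP, which beta-adrenergic receptors raise in muscle fibres through the stimulatory G protein and adenylyl cyclase. They therefore close the pathway that a beta-adrenergic agonist opens. Long forms of all PDE4 members carry a regulatory region with a site for protein kinase A, the kinase that cAMP activates, and phosphorylation there raises the activity of the enzyme. All members share a catalytic domain whose conserved histidine and aspartate residues bind metal ions.

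The libraries held 6675218 to 8533046 counts, but a different part of each was left for nuclear genes. Unigenes that match the mitochondrial genome took 23.3% of the counts in the control and 41.1%, 89.4% and 54.4% in treatments 1, 2 and 3. After unigenes of mitochondrial, ribosomal and bacterial origin had been taken out, the control kept 6416037 counts, treatment 1 4350495, treatment 2 175801 and treatment 3 2852485. Every level is therefore given as counts per 1000000 of all counts (CPM), and the x-fold, which is the ratio of a treated library to the control, is given on this scale unless said otherwise, and for the members and the main results again on that of these remaining counts. Moving from the first scale to the second raised the log2 of the median x-fold over all tested goat genes by 0.45 in treatment 1, 4.34 in treatment 2 and 0.80 in treatment 3. Of 11 paired skeletal muscle markers, 0 were without counts in the control and treatments 1 and 3, and 1, ACTA1, in treatment 2. The unigene paired with ACTA1 held only 130 counts in the control. The unigenes paired with ACTA2, the largest of which matched ACTA1, held 238187 counts in the control and 4245 in treatment 2.

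The sequences show what the counts of each member rest on. The windows around the protein kinase A site are given for the 3 unigenes that held it, because they carry most of the counts. Capitals mark the 5 codons of the site, and each line runs 5′ to 3′ in coding orientation.
c13736_g3, paired with PDE4B: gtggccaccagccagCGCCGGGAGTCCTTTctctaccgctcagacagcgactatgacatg
c13736_g2, paired with PDE4C: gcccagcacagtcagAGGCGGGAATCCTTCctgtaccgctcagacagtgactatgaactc
c13736_g4, paired with PDE4D: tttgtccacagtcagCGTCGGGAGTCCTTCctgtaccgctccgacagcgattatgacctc

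These windows encode the same site in different bases. Of 60 bases, c13736_g4 shared 47 with c13736_g3 and 47 with c13736_g2, while c13736_g3 and c13736_g2 shared 43. The site lies in the regulatory region that long forms carry.

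The windows around the metal-binding motif of the catalytic domain are given for the unigenes that reach it. Capitals mark the 7 codons of the motif.
c37236_g1, paired with PDE4B: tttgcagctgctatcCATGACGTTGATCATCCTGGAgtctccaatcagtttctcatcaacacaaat
c13736_g2, paired with PDE4C: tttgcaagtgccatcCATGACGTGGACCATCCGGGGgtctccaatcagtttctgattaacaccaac
c13736_g4, paired with PDE4D: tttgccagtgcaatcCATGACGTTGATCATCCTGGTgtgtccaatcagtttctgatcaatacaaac

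The catalytic windows were closer to each other than the regulatory ones, with 55 to 57 of 66 bases shared between any pair. Over all 28 pairs of member unigenes, the longest stretch identical in both was 24 bases, and the 8 pairs that could be aligned were 71.1% to 82.2% identical. The other unigenes paired with a PDE4 name, c44405_g1, c161_g1, c37045_g1 and c12585_g1, held neither motif in their deposited reading frames.

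**Figure D1:**
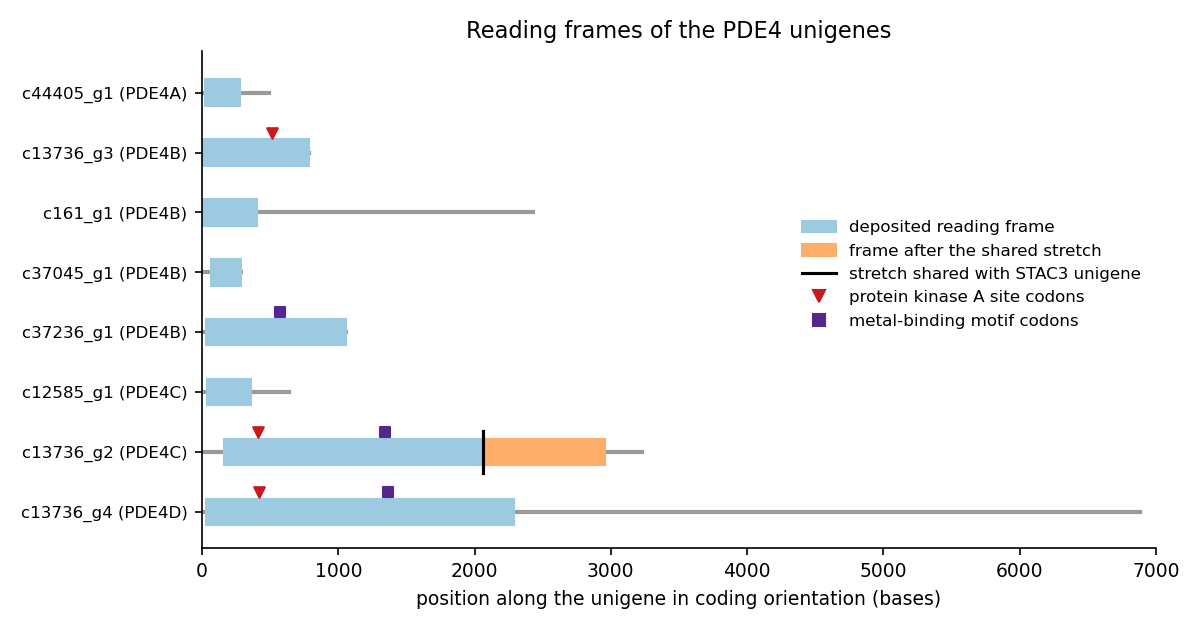
Length of each PDE4 unigene (grey line) and its deposited reading frame (blue), in bases along the unigene in coding orientation, with the codons of the protein kinase A site and of the metal-binding motif. The site and the motif lie at like distances in c13736_g2 and c13736_g4, and the frame of c13736_g2 runs on (orange) past a 21-base stretch shared with a STAC3 unigene at position 2060.

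The name of the PDE4B unigene with the most counts differed between the authors' tables. The table of goat genes paired c13736_g3 with PDE4B at 68% protein identity, whereas the annotation table gave PDE4A as its name in the nucleotide and the Swiss-Prot matches. The other PDE4B unigenes c161_g1, c37236_g1 and c37045_g1 were paired at 100%, 99% and 85% identity, and their Swiss-Prot match was PDE4B. The unigene paired with PDE4A, c44405_g1, had 88% identity and no PDE4 name in these matches. Of 6380 unigenes named in both tables, the names differed for 1681 or 26.3%, and older or alternative symbols of a gene were not told apart here. PDE4B values are therefore given with c13736_g3, as the table pairs it, and without it.

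The PDE4C unigene c13736_g2 contained sequence that matched another gene. It is 3226 bases long with a reading frame of 934 codons, paired with PDE4C at 100% identity. In coding orientation, its last base aligned with another PDE4 unigene was base 1989. From base 2060 to base 2080 it shared 21 bases with c13736_g5, a unigene of 421 bases paired at 100% identity with STAC3, an adaptor protein of excitation-contraction coupling in skeletal muscle, and c13736_g5 ended at the last of these bases. The windows around the shared stretch are shown in coding orientation, with the stretch in capitals.
c13736_g2, paired with PDE4C: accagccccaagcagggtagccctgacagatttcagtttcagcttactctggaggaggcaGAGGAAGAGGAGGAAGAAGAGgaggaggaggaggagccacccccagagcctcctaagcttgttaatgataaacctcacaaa
c13736_g5, paired with STAC3: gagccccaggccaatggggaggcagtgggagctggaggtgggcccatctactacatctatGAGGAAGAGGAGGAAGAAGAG

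Beyond the shared stretch, c13736_g2 went on for 1146 bases, 35.5% of its length. None of the translated matches of these bases to other unigenes was to a PDE4 unigene. The best one was to c25041_g1, a unigene of the related gene STAC, at 52% identity over 50 residues. The deposited counts of c13736_g2 cannot be divided between the parts before and after the stretch, so every PDE4C value below includes fragments of both, and the share of the second part was not tested.

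PDE4C had the most counts of the members in the control, with the part of c13736_g2 beyond the shared stretch included. Its unigenes held 1707 counts there, 1641 in treatment 1, 24 in treatment 2 and 800 in treatment 3, or 200, 206, 3.27 and 120 CPM. The control and treatment 1 were thus alike and treatments 2 and 3 lower on the scale of all counts. The x-fold was 1.03 (0.962 to 1.10) in treatment 1, 0.0163 (0.0104 to 0.0244) in treatment 2 and 0.599 (0.55 to 0.652) in treatment 3. Per remaining counts it was 1.42 (1.32 to 1.52), 0.513 (0.328 to 0.766) and 1.05 (0.968 to 1.15), so that the direction in treatment 3 turned with the scale. The study reported PDE4C as raised over its controls on each sequenced day, by RNA-seq and by qRT-PCR. On neither scale here was PDE4C above the control in all treated libraries. The measures are unlike, since the study names corresponding control samples for its sequencing and scaled its qRT-PCR to the reference gene GAPDH. Here each treated library was set against 1 control library and scaled by counts.

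The PDE4C unigenes differed from each other. The unigene c13736_g2 held 1632 of the control counts and 1631, 24 and 777 counts in treatments 1, 2 and 3. The unigene c12585_g1, 640 bases long, held 75, 10, 0 and 23 counts in the same order. Its x-fold of 0.143 (0.0658 to 0.278) in treatment 1 and the x-fold of 1.07 (0.999 to 1.15) of c13736_g2 had intervals that did not overlap. In treatment 3 they were 0.392 (0.234 to 0.633) and 0.609 (0.558 to 0.663). Per remaining counts c12585_g1 was at 0.197 (0.0906 to 0.382) in treatment 1 and 0.690 (0.412 to 1.11) in treatment 3. Its 0 counts in treatment 2 left an x-fold interval of 0 to 0.0586 per all counts and of 0 to 1.84 per remaining counts, so that no difference was detectable on the latter scale. The STAC3 unigene c13736_g5 held 309 counts in the control and 117, 1 and 86 in treatments 1, 2 and 3, an x-fold of 0.406 (0.325 to 0.504) in treatment 1.

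The transcripts of c13736_g2 fell into short and long ones that moved apart in treatment 1. The 4 transcripts of 1281 to 1637 bases together held 485 counts in the control and 856, 7 and 349 in treatments 1, 2 and 3. The 2 transcripts of 3226 and 3396 bases held 1147 counts in the control and 775, 17 and 428 in treatments 1, 2 and 3. The short ones took 29.7% (27.6 to 32.0) of the unigene in the control, 52.5% (50.1 to 54.9) in treatment 1, 29.2% (14.9 to 49.2) in treatment 2 and 44.9% (41.5 to 48.4) in treatment 3. In treatment 1 the x-fold was 1.89 (1.69 to 2.12) for the short transcripts and 0.724 (0.660 to 0.794) for the long ones, and each short transcript was between 1.80 and 1.98. In treatment 3 it was 0.920 (0.799 to 1.06) for the short and 0.477 (0.426 to 0.533) for the long transcripts. Per remaining counts the long transcripts were at 0.996 (0.909 to 1.09) in treatment 1 and 0.839 (0.749 to 0.939) in treatment 3, and the short ones at 2.60 (2.33 to 2.92) and 1.62 (1.41 to 1.86).

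The mean length of c13736_g2, weighted by its transcripts, was 2333 bases in the control and 1918, 2402 and 2046 in treatments 1, 2 and 3. Its FPKM, a value per kilobase of that length, therefore went from 89.72 in the control to 118.79 in treatment 1, although the counts were 1632 and 1631. In treatments 2 and 3 its FPKM was 1.49 and 62.92. The deposited sequence of this unigene is the transcript of 3226 bases, and the sequences of the other transcripts were not used here, so whether the short ones hold PDE4 or STAC3 bases was not tested. Transcripts of a unigene share fragments, and their counts are the authors' estimates.

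**Figure D2:**
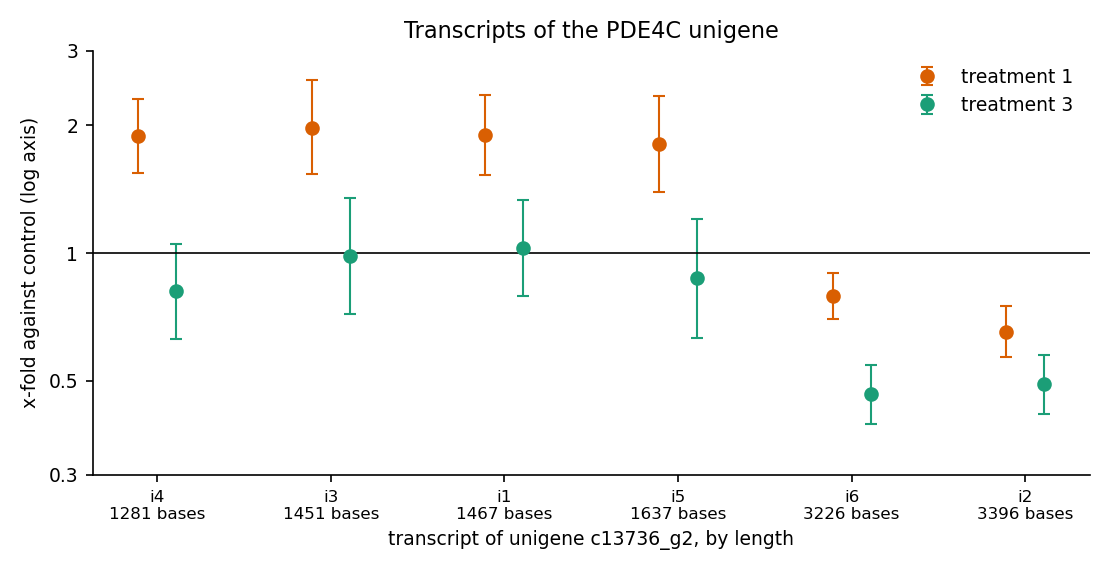
X-fold per all counts against the control (log axis) of each transcript of c13736_g2, ordered by length in bases, in treatments 1 and 3; bars are 95% intervals of counting error. In treatment 1 the 4 short transcripts lie at 1.80 to 1.98 and the 2 long ones at 0.653 and 0.791.

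PDE4D was the member that was high in treatment 1. Its unigene c13736_g4, 6883 bases long and paired at 100% identity, held 633 counts in the control and 1816, 4 and 126 in treatments 1, 2 and 3. This was 74.2 CPM in the control and 228, 0.545 and 18.9 in treatments 1, 2 and 3, so that treatment 1 stood above the control and the others below it. The x-fold was 3.07 (2.81 to 3.37), 0.00735 (0.00200 to 0.0189) and 0.254 (0.208 to 0.309). Per remaining counts it was 4.23 (3.86 to 4.64), 0.231 (0.0626 to 0.593) and 0.448 (0.367 to 0.543), with the same directions. The FPKM was 11.08, 34.04, 0.08 and 2.82.

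The counts of PDE4D were split about evenly between its transcripts in each library. The transcript of 6904 bases held 315 counts in the control and 912, 2 and 66 in the treated libraries, and that of 6883 bases held 318 and 904, 2 and 60. Their x-folds were 3.10 and 3.05 in treatment 1 and 0.268 and 0.241 in treatment 3. Transcripts of a unigene share fragments, so these x-folds restate that of the unigene and are no separate result.

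PDE4B, as the table pairs its 4 unigenes, was low in every treated library. It held 990 counts in the control and 120, 5 and 160 in treatments 1, 2 and 3, or 116, 15.1, 0.681 and 24.0 CPM. The x-fold was 0.130 (0.107 to 0.157), 0.00587 (0.00190 to 0.0137) and 0.207 (0.174 to 0.244). Per remaining counts it was 0.179 (0.147 to 0.216), 0.184 (0.0597 to 0.432) and 0.364 (0.306 to 0.430).

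Most of the control counts lay in c13736_g3, the unigene that the annotation names PDE4A, but in treatment 1 it held 51 of 120. It held 892 counts in the control and 51, 3 and 116 in treatments 1, 2 and 3. Its x-fold in treatment 1 was 0.0613 (0.0453 to 0.0813), in treatment 2 0.00391 (0.000805 to 0.0115) and in treatment 3 0.166 (0.136 to 0.202). Per remaining counts it was 0.0843 (0.0623 to 0.112), 0.123 (0.0253 to 0.36) and 0.293 (0.239 to 0.355). Its longer transcript of 2876 bases held 828 of the control counts and 50, 3 and 111 counts in the treated libraries, and the shorter one of 788 bases, which is the deposited sequence, held 64, 1, 0 and 5.

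Without c13736_g3, PDE4B held 98 counts in the control and 69, 2 and 44 in treatments 1, 2 and 3. The x-fold was then 0.755 (0.546 to 1.04) in treatment 1, 0.0237 (0.00283 to 0.0880) in treatment 2 and 0.574 (0.393 to 0.827) in treatment 3. Per remaining counts it was 1.04 (0.752 to 1.43), 0.745 (0.0890 to 2.76) and 1.01 (0.691 to 1.46), and no difference from the control was detectable. The low PDE4B value in treatment 1 thus depended on which gene c13736_g3 belongs to.

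Among the unigenes that match PDE4B in both tables, c161_g1 (2430 bases) and c37236_g1 (1057 bases) did not move alike. The unigene c161_g1, of which 134 codons lie in the reading frame and the rest outside it, held 69, 66, 1 and 38 counts in the control and treatments 1, 2 and 3. The unigene c37236_g1, which covers the catalytic motif, held 27, 3, 1 and 4 counts. The x-fold in treatment 1 was 1.03 (0.720 to 1.46) for the former and 0.119 (0.0231 to 0.387) for the latter. The short unigene c37045_g1 of 289 bases held 2, 0, 0 and 2 counts, too few for a comparison.

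PDE4A, as the table pairs it, was close to the limit of detection. The unigene c44405_g1, 488 bases long, held 7 counts in the control, 0 in treatments 1 and 2 and 3 in treatment 3. The x-fold interval in treatment 1 was 0 to 0.744 per all counts and 0 to 1.02 per remaining counts, so that no difference was detectable on the latter scale. The x-fold in treatment 3 was 0.548 (0.0914 to 2.40), which spans 1 too. With c13736_g3 added, as the annotation names it, PDE4A held 899, 51, 3 and 119 counts, and its x-folds were 0.0608, 0.00388 and 0.169.

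**Figure D3:**
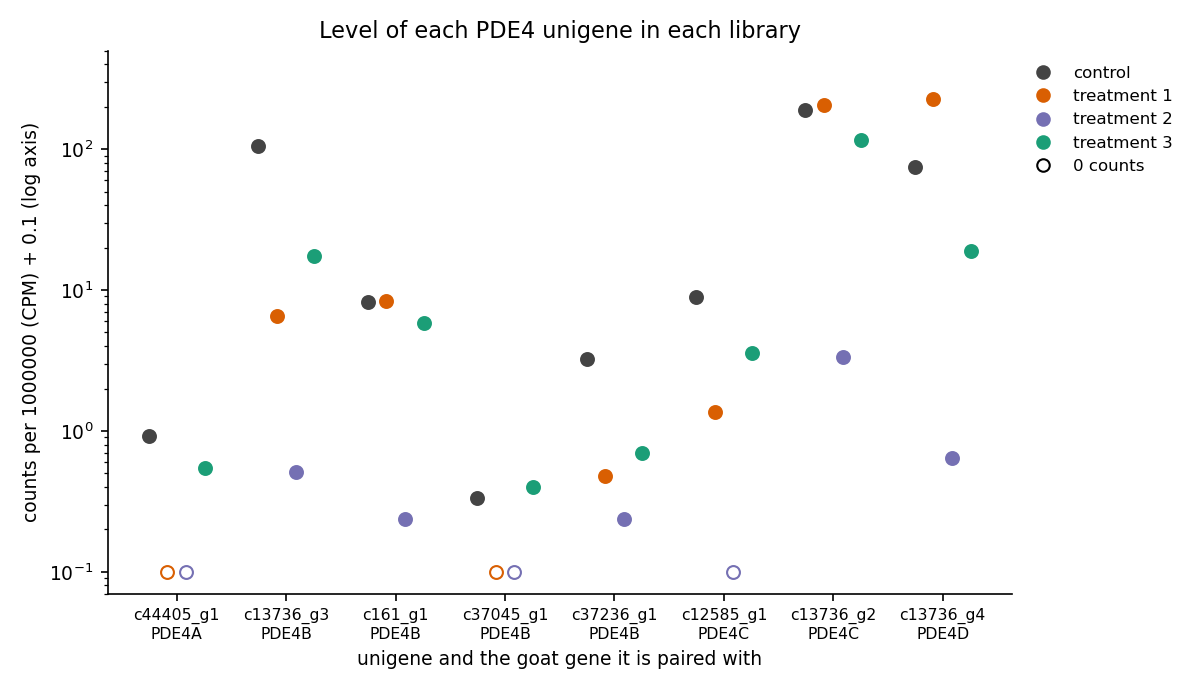
CPM of all counts, with 0.1 added, on a log axis, for each of the 8 PDE4 unigenes in the control and in treatments 1 to 3; open points are 0 counts. Treatment 1 is above the control for c13736_g4 (PDE4D) and far below it for c13736_g3, while c161_g1 and c13736_g2 are close to it.

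Further unigenes that the table pairs with no goat gene had a PDE4 name in their nucleotide match. There were 10 of them, of which 5 held more than 20 counts in the control. Those named PDE4A were c10653_g1 with 369, 92, 1 and 167 counts in the control and treatments 1, 2 and 3, and c13736_g6 with 53, 5, 0 and 6. A further one, c10653_g2, matched a clone with several genes besides PDE4A and held 42, 96, 4 and 58 counts. Those named PDE4C were c12585_g2 with 175, 156, 4 and 125 counts and c2529_g2 with 31, 7, 0 and 7. With all of them added to the sequence-based names, the x-fold in treatment 1 was 0.192 (0.167 to 0.221) for PDE4A, 1.01 (0.947 to 1.08) for PDE4C and 3.07 (2.80 to 3.36) for PDE4D.

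The limits used by the study, an x-fold above 3 or below 0.6, were set against all 7905 goat genes with a mean of at least 1 CPM, with 0.1 CPM added. PDE4B, PDE4C and PDE4D were among these genes and PDE4A was not. In treatment 1, PDE4D was above 3, as were 2.3% of the genes, and PDE4B was below 0.6, as were 55.6%. In treatment 2, all 3 members were below 0.6, as were 99.2% of the genes, and 0.0886% were above 3. In treatment 3, all 3 were below 0.6, PDE4C only just, as were 72.8% of the genes, and 0.607% were above 3. A value below 0.6 per all counts was thus shared with most genes in each treated library. The median x-fold of all tested genes was 0.541, 0.0258 and 0.417 in treatments 1, 2 and 3. PDE4B was below it in all 3, PDE4C in treatment 2 and PDE4D in treatments 2 and 3.

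Per remaining counts, 4.31% of the genes were above 3 and 38.2% below 0.6 in treatment 1, with PDE4D among the former and PDE4B among the latter. In treatment 2, 8.31% were above 3 and 54.4% below 0.6, and all 3 members were below. In treatment 3, 2.29% were above 3 and 37.9% below 0.6, and PDE4B and PDE4D were below while PDE4C was within the limits. The median x-fold of all tested genes on this scale was 0.741, 0.523 and 0.727 in treatments 1, 2 and 3.

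**Figure D4:**
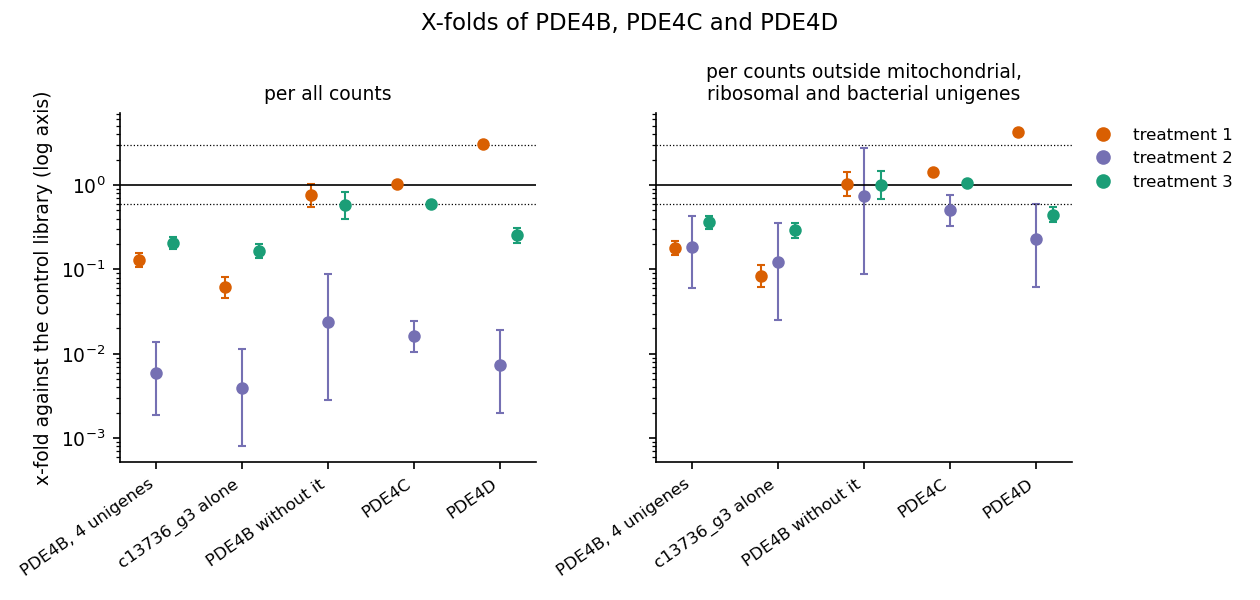
X-fold against the control (log axis) of PDE4B with its 4 paired unigenes, of its unigene c13736_g3 alone, of PDE4B without it, of PDE4C and of PDE4D in treatments 1 to 3, per all counts (left) and per the counts outside mitochondrial, ribosomal and bacterial unigenes (right); bars are 95% intervals of counting error and dotted lines are 3 and 0.6. PDE4D in treatment 1 is above 3 on both scales, and PDE4B without c13736_g3 is near 1 on the right.

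Shares within the PDE4 counts of a library do not depend on how the libraries are scaled. PDE4D took 19.0% (17.7 to 20.3) of 3337 PDE4 counts in the control and 50.8% (49.1 to 52.4) of 3577 in treatment 1. It took 12.1% (4.82 to 27.3) of 33 counts in treatment 2 and 11.6% (9.80 to 13.6) of 1089 in treatment 3. Its share was thus highest in treatment 1, and that of treatment 3 was below that of the control beyond counting error. PDE4C took 51.2% (49.5 to 52.8) in the control and 45.9% (44.2 to 47.5), 72.7% (55.8 to 84.9) and 73.5% (70.8 to 76.0) in treatments 1, 2 and 3. PDE4B with its 4 paired unigenes took 29.7% (28.1 to 31.2), 3.35% (2.81 to 4.0), 15.2% (6.65 to 30.9) and 14.7% (12.7 to 16.9). PDE4A took 0.210% of the counts in the control and 0.275% in treatment 3.

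When c13736_g3 was counted as PDE4A, the share of PDE4A was 26.9% in the control and 1.43%, 9.09% and 10.9% in treatments 1, 2 and 3, and that of PDE4B was 2.94%, 1.93%, 6.06% and 4.04%. Per length, as shares of the summed FPKM, PDE4C led in every library, with 60.1% in the control and 74.9%, 76.8% and 79.7% in treatments 1, 2 and 3. All PDE4C shares include the part of c13736_g2 beyond the stretch shared with STAC3. The PDE4D unigene is long, and its share of the FPKM was 6.07% in the control and 21.0%, 4.12% and 3.18% in the treated libraries.

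The ratio of PDE4D to c13736_g3 counts within a library set the members that moved apart against each other. It was 0.710 (0.640 to 0.787) in the control, 35.6 (27.0 to 48.0) in treatment 1 and 1.09 (0.837 to 1.41) in treatment 3. In treatment 2 it rested on 4 and 3 counts. The summed PDE4 CPM were 391, 449, 4.50 and 163, an x-fold of 1.15 (1.10 to 1.20) in treatment 1 and 0.417 (0.389 to 0.447) in treatment 3. Per remaining counts it was 1.58 (1.51 to 1.66) and 0.734 (0.685 to 0.786).

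**Figure D5:**
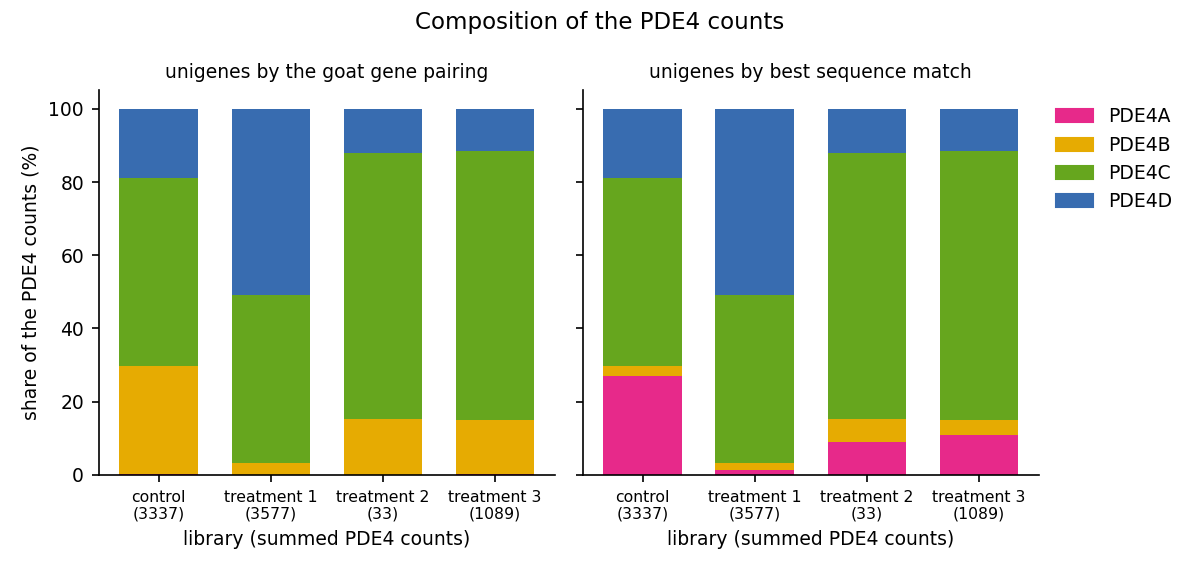
Share of each PDE4 member in the summed PDE4 counts of each library (%), with the summed counts in brackets, for unigenes named by their paired goat gene (left) and by their best sequence match (right). PDE4D takes 50.8% in treatment 1 and 11.6% to 19.0% in the other libraries, and c13736_g3 moves from PDE4B to PDE4A between the panels.

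PDE4 made up most of the counts of the phosphodiesterase genes that the authors' table pairs with a unigene. Of 14 such genes in the table, the 4 PDE4 genes held 81.2% (80.0 to 82.4) of 4109 counts in the control and 86.3% (85.3 to 87.4), 89.2% (75.3 to 95.7) and 85.5% (83.5 to 87.4) in treatments 1, 2 and 3. The table paired 7 of 12 listed genes of the other cAMP phosphodiesterases, but not PDE1A, PDE3A, PDE3B, PDE10A or PDE11A. PDE5A, listed as cGMP-specific, was not paired either. PDE8A, a cAMP-specific enzyme, held 396, 197, 1 and 69 counts in the control and treatments 1, 2 and 3. PDE7A, also cAMP-specific, held 160, 290, 0 and 33, and was with PDE4D above the control in treatment 1, with an x-fold of 1.94 (1.60 to 2.37), and of 2.67 per remaining counts. PDE2A, which cGMP stimulates, held 94, 28, 3 and 45 counts, and PDE7B held 50, 8, 0 and 8. PDE1B, PDE1C and PDE8B held at most 12 counts in any library. PDE9A and PDE6B, which act on cGMP, held 17 and 1 counts in the control and at most 10 in any treated library. PDE6D, a prenyl-binding protein without catalytic activity that bears the family name, held 41, 35, 0 and 14 counts.

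The other genes of the pathway were summarised over lists, to be read beside the 55.6% of all tested genes below 0.6 in treatment 1 and the 72.8% in treatment 3. Of 13 tested partners and anchors of PDE4, 0 were above 3 and 9 below 0.6 in treatment 1, with a median x-fold of 0.459 beside 0.541 over all genes, and 9 were below 0.6 in treatment 3. Per remaining counts, where 38.2% and 37.9% of all genes were below 0.6, these counts were 6 in treatment 1 and 3 in treatment 3. PDE4DIP, an anchor of PDE4D, held 11257, 3471, 25 and 2915 counts. GNB2L1, a scaffold protein, held 6083, 3664, 245 and 3302, and PAFAH1B1, a regulator of dynein, held 605, 401, 8 and 192. Of 6 tested genes of the adenylyl cyclase list, 4 were below 0.6 in treatment 1 and 4 in treatment 3, and per remaining counts 3 in each. The adenylyl cyclases ADCY2 and ADCY9 had x-folds of 0.359 and 0.0871 in treatment 1, and the cyclase-associated actin regulator CAP2 0.441.

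Of 13 tested cAMP effectors, 9 were below 0.6 in treatment 1 and 10 in treatment 3, and 0 were above 3 in either. Per remaining counts, 6 were below 0.6 in each of these libraries, beside 38.2% and 37.9% of all genes. In treatment 1, 1 was above 3 on that scale, beside 4.31% of all genes. The regulatory subunits of protein kinase A, PRKAR2A and PRKAR1A, had x-folds of 0.25 and 0.482 in treatment 1, and its inhibitor PKIA 0.761. The cAMP-responsive transcripts were listed with earlier results of these data known. Of 12 tested, 7 were above 3 and 1 below 0.6 in treatment 1, with a median of 3.47. Over all genes, 2.3% were above 3 there. In treatment 3, 2 were above 3 and 2 below 0.6, beside 0.607% and 72.8% of all genes. The median there was 0.837 beside 0.417 over all genes. Per remaining counts, 9 were above 3 in treatment 1 and 3 in treatment 3, beside 4.31% and 2.29% of all genes. In treatment 2, all 12 were below 0.6, as were 99.2% of all genes. Per remaining counts there, 2 were above 3 and 5 below 0.6, beside 8.31% and 54.4% of all genes. CREM, a cAMP-responsive transcription factor, had an x-fold of 8.33, the phosphatase gene DUSP1 3.37 and FOS 1.41 in treatment 1. These values stand beside the x-fold of 3.07 of PDE4D in that library.

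Markers of other cells that a muscle sample can hold also moved in treatment 1. All 3 tested adipocyte markers and 2 of 3 tested Schwann cell markers were above 3 there, beside 2.3% of all tested genes. The summed level of the 4 paired adipocyte markers was 36.7 CPM in the control and 140, 20.4 and 25.6 in treatments 1, 2 and 3, and PLIN1 was at 5 counts in treatment 1. That of the 5 paired Schwann cell markers was 27.1 in the control and 130, 3.95 and 28.5, with SOX10 at 2 counts in treatment 1. The summed level of the 7 paired leukocyte markers was 17.7 in the control and 1.63 to 16.6 in the treated libraries. Of them, 2 were tested, and 0 were above 3 in treatment 1, beside 2.3% of all tested genes. The defining leukocyte markers had few counts, with PTPRC at 2 and CD14 at 3 in the control and 1 and 0 in treatment 1. In the control and treatment 1, CD68 was at 7 and 18, LCP1 at 3 and 7 and TYROBP at 3 and 5. The 6 paired endothelial markers summed to 236 in the control and 18.8 to 178 in the treated libraries. The 5 fibroblast markers summed to 98.2 in the control and 43.9 to 117. The 6 smooth muscle markers summed to 38174 in the control and 838 to 27592, but most of this lay in DES, also a muscle fibre gene, and in ACTA2, whose largest unigene matched the muscle fibre actin ACTA1. Of the other smooth muscle markers, CNN1 had an x-fold of 5.68 (2.86 to 12.5) in treatment 1, TAGLN 1.62, SMTN 1.06 and MYH11 0.474. Treatment 2 was highest for most lists per remaining counts, scaled as CPM. In the control and treatments 1, 2 and 3 the adipocyte sum was 48.8, 257, 853 and 59.9. That of fibroblasts was 131, 183, 1832 and 274. Endothelial sums were 314, 252, 785 and 417, and leukocyte sums 23.5, 30.3, 68.3 and 30.1. Among endothelial markers, VWF went from 169 in the control to 49.6 in treatment 1, and CDH5 and KDR were lower too. EGFL7, TEK and PECAM1 were higher in treatment 1, and the median x-fold of the endothelial list was 1.01 there. The Schwann cell sum, at 36.0, 237, 165 and 66.6, stayed highest in treatment 1. The smooth muscle sum, which lay mostly in ACTA2 and DES, was lowest in treatment 2, at 34971.4 beside 50769.7 in the control. Of the other smooth muscle markers, SMTN was at 119 in treatment 2 beside 54.7 in the control, and TAGLN at 91.0 beside 32.9. CNN1 was at 11.4 beside 1.56 and MYH11 at 17.1 beside 17.6, with 2 and 3 counts in treatment 2. Whether these cells had a part in the PDE4 values was not tested.

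GAPDH, a common reference gene, held 111313 counts in the control and 66565, 4205 and 84905 in treatments 1, 2 and 3. Its x-fold was 0.641, 0.0439 and 0.975 per all counts and 0.882, 1.38 and 1.72 per remaining counts. PDE4D was above GAPDH in treatment 1 and below it in treatment 3 by x-fold on either scale.

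The goat genes with the profiles most like those of the members were found by the smallest maximum difference in log2 x-fold over the 3 treated libraries, with 0.1 CPM added. For PDE4D, whose x-folds were 3.07, 0.00868 and 0.255 on this scale, they were TMEM2 with a difference of 0.24, ANKRD1 with 0.35 and IVNS1ABP with 0.42. ANKRD1, a stretch-responsive ankyrin repeat protein of striated muscle, held 8655, 25281, 50 and 1461 counts. For PDE4C they were LIX1L, PYGO1 and NCR3LG1, with differences of 0.06 to 0.14, and for PDE4B they included ANKRD35 and UBE3B, with differences of 0.11 and 0.16. For PDE4A, which held 7 control counts, the closest genes NOTCH3, LAMC1 and VWF were 0.90 to 1.03 away. These are descriptions over 3 libraries that share a control library.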

How the data were processed

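RNA-seq was performed by the authors on 4 goat muscle libraries with an Illumina instrument, and the reads were assembled into unigenes and transcripts. The assembler, the counting tool and the genome build are not given in the sources used here, and FastQC 0.10.1 is named in the submitters' processing notes. For each unigene and each transcript the authors deposited an expected count, their estimate of fragments, in whole numbers. They also deposited FPKM, which scales fragments by effective length in kilobases and by library size, and TPM, which was not used here. The percent identity of each protein match is in the authors' deposited table of goat genes. That table keeps 1 goat gene per unigene.

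From these, expected counts were summed over the unigenes of a gene and divided by the 6675218 to 8533046 counts of the library. Intervals of x-folds are exact Clopper-Pearson intervals given the library totals, and intervals of shares are Wilson intervals, both at 95%. Where a library held 0 counts, the upper limit of this interval is given. Fragments from PCR are not independent molecules, so intervals cover counting error only. No test between conditions was made, as there is 1 control library. Unigenes were classed from the wording of the best nucleotide hit as mitochondrial (35), ribosomal (40) or bacterial (174), with wording set after the matches had been seen. Sequences were taken from the deposited annotation, turned into coding orientation where needed, and compared by BLAST 2.17.0 at an E value of at most 1e-08. Motifs were found in the translation of the deposited reading frame. Planned matches to goat proteins and promoters could not be made, as such sequences were not used here. The interval and limit calculations were tested on simulated counts.

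The members and lists were chosen with earlier results of these data known. Named genes were the members, the other phosphodiesterases of the lists, the 3 genes of each other pathway list with the highest mean level, GAPDH, and for each member the 3 genes of most like profile among those with a mean of at least 5 counts per 1000000 (CPM) and 20 control counts, of which 1 for PDE4B is not reported here. Genes around c13736_g2 were named after their values were seen. Alternatives were other library totals, including TMM factors from edgeR 4.0.16, FPKM in place of counts, a minimum identity of 90%, names by sequence match, other filters and pseudocounts, and leaving out each treated library. The calculations used Python, numpy, scipy, pandas and matplotlib.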

Additional observations from a re-analysis of the deposited data

Results flagged for a closer look

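The unigene c10653_g2, which the authors' table pairs with no goat gene and whose nucleotide match is a clone with several genes besides PDE4A, was above the control beyond counting error in a pair of treated libraries. It stood at 4.92 CPM in the control, 12.1 in treatment 1 and 8.69 in treatment 3, with x-folds of 2.45 (1.69 to 3.61) and 1.77 (1.17 to 2.69). In treatment 2 it held 4 counts. Which of the genes of the clone its fragments came from was not tested.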

How the results depend on the processing

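Of 112 alternative values, 59 stayed within the counting interval, the spread or 1.5 times of the value reported, 48 moved beyond it and 5 reversed a direction. With the counts outside mitochondrial, ribosomal and bacterial unigenes as the total, the x-fold of PDE4B in treatments 1, 2 and 3 was 0.179, 0.184 and 0.364, that of PDE4C 1.42, 0.513 and 1.05, and that of PDE4D 4.23, 0.231 and 0.448. PDE4C in treatment 3 thus turned from lower to higher. With TMM factors the values were 0.24, 0.22 and 0.487 for PDE4B, 1.90, 0.613 and 1.41 for PDE4C, which turned again, and 5.68, 0.275 and 0.5999 for PDE4D, and PDE4A in treatment 3, with 3 counts, turned to 1.29. Such turns follow from the smaller totals, which raise every x-fold of a library alike. With unigenes of at least 90% identity, which leaves out c13736_g3, PDE4B was at 0.770, 0.0242 and 0.559, and with names by the sequence match, an alternative chosen after seeing the data, at 0.755, 0.0237 and 0.574. PDE4A had no unigene at 90% identity and gave no value there, and where it held 0 counts it gave no x-fold. The share of PDE4D in the control and treatments 1, 2 and 3 was 6.07%, 21.0%, 4.12% and 3.18% by FPKM, which divides by its long unigene, and 26% in the control at 90% identity, where c13736_g3 is missing from the total.

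The median x-fold over the treated libraries was 0.130 for PDE4B, 0.599 for PDE4C and 0.254 for PDE4D. Leaving out a treated library gave 0.0679 to 0.168 for PDE4B and 0.308 to 0.815 for PDE4C. For PDE4D it gave 0.131 to 1.66, and the median turned to 1.66 without treatment 2 and to 1.54 without treatment 3, so that it rests on which libraries enter. No paired analysis was possible because there is 1 control library. The 33 PDE4 counts of treatment 2 limit every comparison with it. The number of goat genes past the limits stayed within 1.5 times of the number reported without the filter and with a pseudocount of 1.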
